A study of Mus musculus with 8 samples.

Results

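The genes of the major histocompatibility complex class II pathway were followed in RAW 264.7 cells, a mouse macrophage-like line of BALB/c origin. They were 8 in number (Cd74, H2-DMa, H2-DMb1, H2-Oa, H2-Aa, H2-Ab1, H2-Eb1 and Ciita), chosen by name, and a probe belonged to one of them where its transcript carried that gene symbol. Of the 8 genes, 7 had a probe matched in this way, 11 probes in all, among 15182 genes tested. No probe matched H2-Eb1, and it was not analysed here. The match by transcript named 29169 of 43379 probe features, so it does not show that the array lacks a probe for H2-Eb1. The cells were exposed for 6 h, at a multiplicity of infection of 1, to *Lactobacillus acidophilus* (2 arrays), *Bacillus clausii* (3 arrays) or *Bifidobacterium bifidum* (3 arrays). Each array held RNA of treated cells in Cy5 beside RNA of time-matched untreated cells in Cy3, and the dyes were not swapped on any array, so an effect of the dye on a probe and an effect of treatment cannot be told apart. The arrays lay on 2 slides. Slide 2 held *B. clausii* replicates 1 and 2 and *B. bifidum* replicates 1 and 2, and slide 1 held both *L. acidophilus* arrays and replicate 3 of *B. clausii* and of *B. bifidum*. The submitters call the replicates biological, but no label ties an array to its own culture, so each p-value reflects only how far these arrays scatter, and that scatter may be technical.

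Class II molecules are pairs of an alpha and a beta chain that carry peptides from endocytosed proteins to the surface of antigen-presenting cells, where CD4 T cells read them. The invariant chain, encoded by Cd74, holds the new chain pair and blocks its groove, H2-DM exchanges the last fragment of the invariant chain for peptide, and H2-DO restrains H2-DM. The transactivator CIITA, encoded by Ciita, is recruited to these genes by factors bound at paired X and Y boxes near their start. Macrophages at rest are known for low class II expression, which interferon gamma raises through JAK kinases and CIITA.

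RefSeq promoter windows (assembly GRCm38.p6, from 250 bases before to 50 bases after the gene's start) were searched for 5 of the 8 genes. Cd74 was left out of this search by gene, and no window was seen for Ciita and H2-Ab1. The windows of 3 genes are printed here because they show the paired boxes that the pathway shares and belong to genes whose readings are described after them. The assembly is that of the C57BL/6J strain, not of the cells used. The capitals mark a GNAAC half-site of the X box, followed by a TGATTGG Y box on the same strand. Both strands were searched, with 20 to 35 bases between the motifs, a spacing chosen after the windows had been read.
H2-Oa promoter (chr17:34092129-34092428, plus strand): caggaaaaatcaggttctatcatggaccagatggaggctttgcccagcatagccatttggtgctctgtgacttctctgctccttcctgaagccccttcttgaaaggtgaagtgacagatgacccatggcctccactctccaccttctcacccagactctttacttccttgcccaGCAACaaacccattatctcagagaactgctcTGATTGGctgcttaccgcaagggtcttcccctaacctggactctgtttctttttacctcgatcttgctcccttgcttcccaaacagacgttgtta
H2-DMb1 promoter (chr17:34152941-34153240, plus strand): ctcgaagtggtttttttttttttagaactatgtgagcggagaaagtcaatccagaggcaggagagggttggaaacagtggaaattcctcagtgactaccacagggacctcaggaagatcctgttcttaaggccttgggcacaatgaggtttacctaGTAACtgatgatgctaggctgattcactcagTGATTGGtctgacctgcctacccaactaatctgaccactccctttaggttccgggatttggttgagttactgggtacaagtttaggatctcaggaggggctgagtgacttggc
H2-Aa promoter (chr17:34287774-34288073, minus strand): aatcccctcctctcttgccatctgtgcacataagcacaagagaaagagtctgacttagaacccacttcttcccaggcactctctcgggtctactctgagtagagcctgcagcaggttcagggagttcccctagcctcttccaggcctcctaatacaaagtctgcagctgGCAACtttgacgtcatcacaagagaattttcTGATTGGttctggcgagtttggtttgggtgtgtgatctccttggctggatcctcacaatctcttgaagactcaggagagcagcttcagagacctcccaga
In each of the 3 windows the motifs lay 26 bases apart. The Y box began 45 bases before the gene's start in H2-Oa, 63 in H2-DMb1 and 50 in H2-Aa. The H2-Eb1 window (chr17:34305617-34305916, plus strand) held the pair too, with 25 bases between its motifs, and neither of 2 H2-DMa windows held it. The pair occurred in 4 of the 5 genes' windows, and in 140 of 32817 promoter windows of the table (0.427%), while the Y box alone was in 7.8% and the short X half-site alone in 84.9%. A match is only these letters in this window.

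The number of arrays on which the genes could be read differed. Cd74 was well above background, by the scanner's own flag for the brightest probe of each gene, in both channels on all 8 arrays. H2-DMa and H2-Oa were well above background in both channels on 7 of 8 arrays. H2-DMb1 was so on 3 arrays in treated cells and 7 in untreated cells, H2-Ab1 on 4 and 5, Ciita on 4 and 4, and H2-Aa on 0 and 2. The genes near background were therefore H2-Aa and Ciita on both slides, and H2-Ab1 and H2-DMb1 on slide 2. On *B. clausii* replicate 3 every one of the 7 genes except Cd74 was below that limit in both channels, and that array stood apart as a whole, with 12514 probes well above background against 21453 to 26453 on the others, and with a coefficient of variation over repeated spots of 72.5% in Cy5 and 67.4% in Cy3 against at most 21.5% and 20.2% elsewhere. No spot of the 7 genes was saturated.

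**Figure D1:**
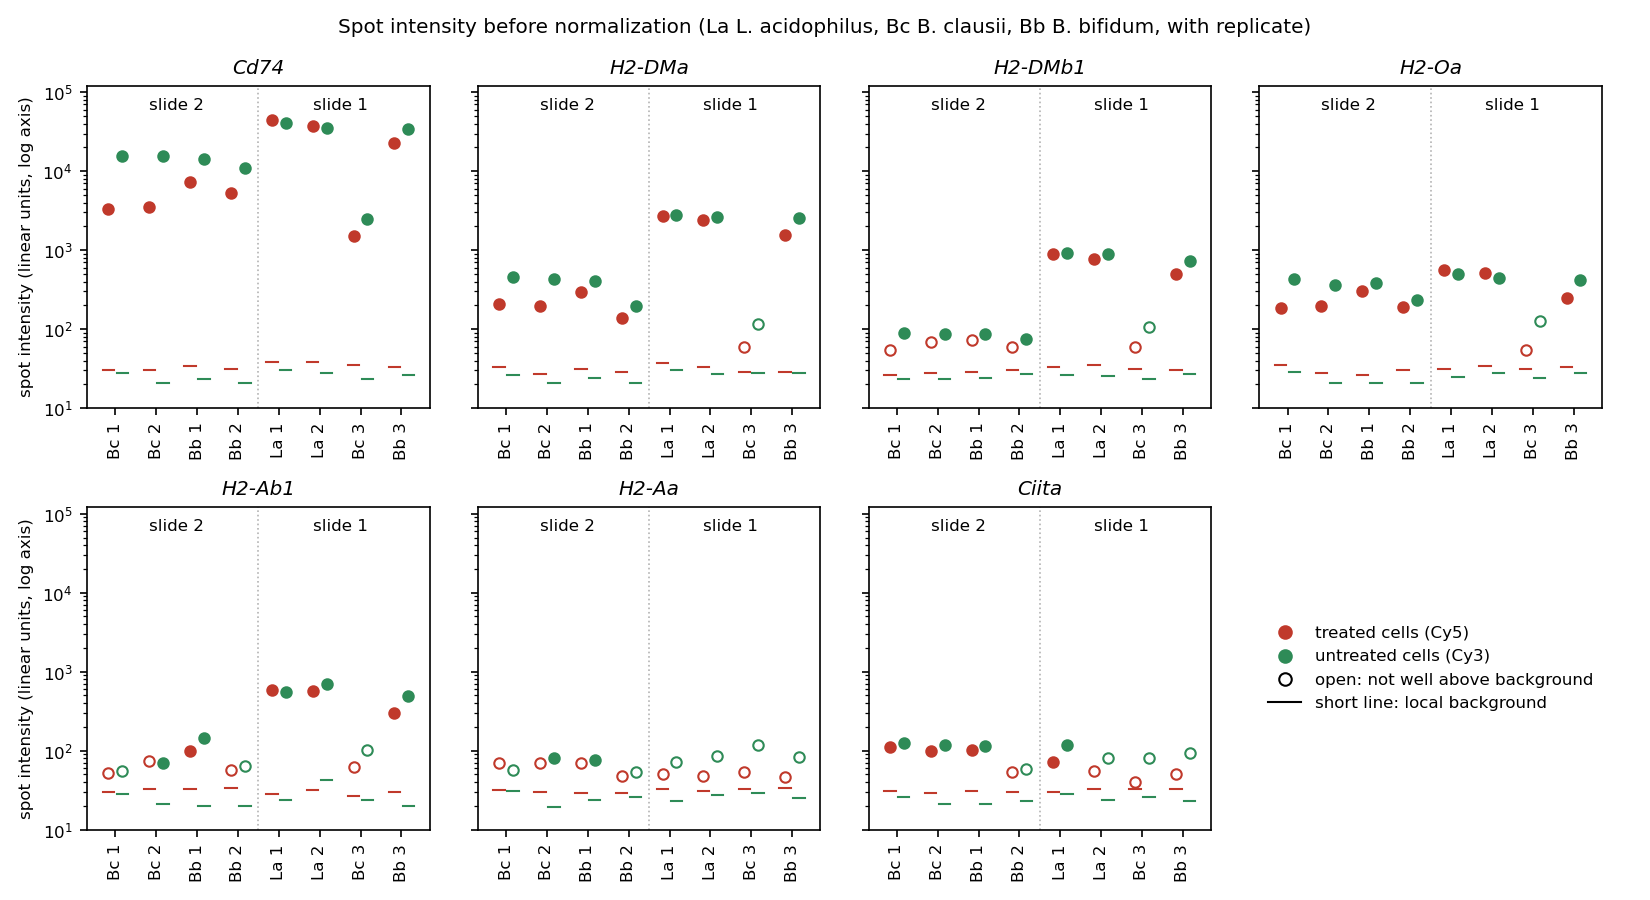
Spot intensity of the brightest probe of each gene in treated (Cy5) and untreated (Cy3) cells, on a log axis in the scanner's linear units, for 4 arrays of slide 2 and 4 of slide 1. Short lines give the local background and open points are not well above it. Cd74 lies between 1531.5 and 43996.2 in treated cells, while H2-Aa stays between 46 and 70.

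Cd74 was the only one of the 7 genes that passed the test in any strain, and it fell with *B. clausii*. Its spots read 3346, 3535 and 1531.5 intensity units in *B. clausii*-treated cells on replicates 1 to 3, against 15702, 15440 and 2505 in untreated cells. After normalization the log2 ratio of treated over untreated cells was −1.24 and −1.23 on the 2 arrays of slide 2 and −0.17 on the array of slide 1. The slide 2 arrays thus lay close together, and the slide 1 array lay far nearer to 0.

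The mean log2 ratio of Cd74 with *B. clausii* was −0.88 ± 0.18 (SE, n = 3), or 0.543-fold, with an adjusted p of 0.0410 (limma, Benjamini-Hochberg over all genes). It passed in 6 of 14 alternative settings of the processing. In this comparison 4.77% of all genes were called, 2.6% as lower and 2.17% as higher. In bulk RNA, fewer cells that express the gene and less RNA per cell cannot be told apart. The call did not hold without *L. acidophilus* replicate 1 (adjusted p = 0.0947), *L. acidophilus* replicate 2 (0.0947), *B. clausii* replicate 1 (0.338), *B. clausii* replicate 2 (0.328), *B. bifidum* replicate 1 (0.0745) or *B. bifidum* replicate 2 (0.0811). It held without *B. bifidum* replicate 3 (0.0395, with 1739 of 15182 genes called). It held too without *B. clausii* replicate 3 (0.000132, with 5480 genes called), where the ratio was −1.23. A fit blocked on slide gave −0.77 (adjusted p = 0.00431, 25.3% of all genes called). Within slide 2 the ratio was −1.23 ± 0.04 (SE, n = 2, adjusted p = 9.80e-05), with 56% of all genes called there.

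With *B. bifidum* the Cd74 spots read 7218.5, 5290 and 22432.5 in treated cells, against 14273.5, 11024 and 34512.9 in untreated cells, on replicates 1 to 3. The log2 ratios were −0.33 and −0.34 on slide 2 and −0.13 on slide 1. Their mean of −0.27 ± 0.18 (SE, n = 3) did not pass (limma adjusted p = 0.479, 1.73% of all genes called). Within slide 2 the value was −0.33 ± 0.04 (SE, n = 2, adjusted p = 0.00268, 38.8% of all genes called), and without *B. clausii* replicate 3, which enters the shared estimate of spread, the adjusted p was 0.0370.

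With *L. acidophilus* Cd74 read 43996.2 and 37302.7 in treated cells and 40784.3 and 35767.3 in untreated cells. The log2 ratios were −0.13 and −0.17, with a mean of −0.15 ± 0.22 (SE, n = 2, limma adjusted p = 0.927). This comparison had 0% of all genes called, and 1097 of 15182 genes at an unadjusted p under 0.05. On slide 1 the Cd74 ratios of all 3 strains therefore lay between −0.17 and −0.13, and all 8 arrays gave a ratio below 0. Scaled by the array median instead of by loess, the *L. acidophilus* mean had the opposite sign, 0.41 (adjusted p = 0.817).

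The gap between *B. clausii* and *B. bifidum* in Cd74 was −0.61 ± 0.26 (SE, n = 3 each) and did not pass over all arrays (limma adjusted p = 0.392, 0.0263% of all genes called). Within slide 2, where both strains had 2 arrays, it was −0.90 ± 0.06 (adjusted p = 0.00113, 29.7% of all genes called). The adjusted p was 0.0700 in a fit blocked on slide and 0.00152 without *B. clausii* replicate 3, where the gap was −0.97 and 2132 of 15182 genes were called. These comparisons use the same arrays as those against untreated cells.

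**Figure D2:**
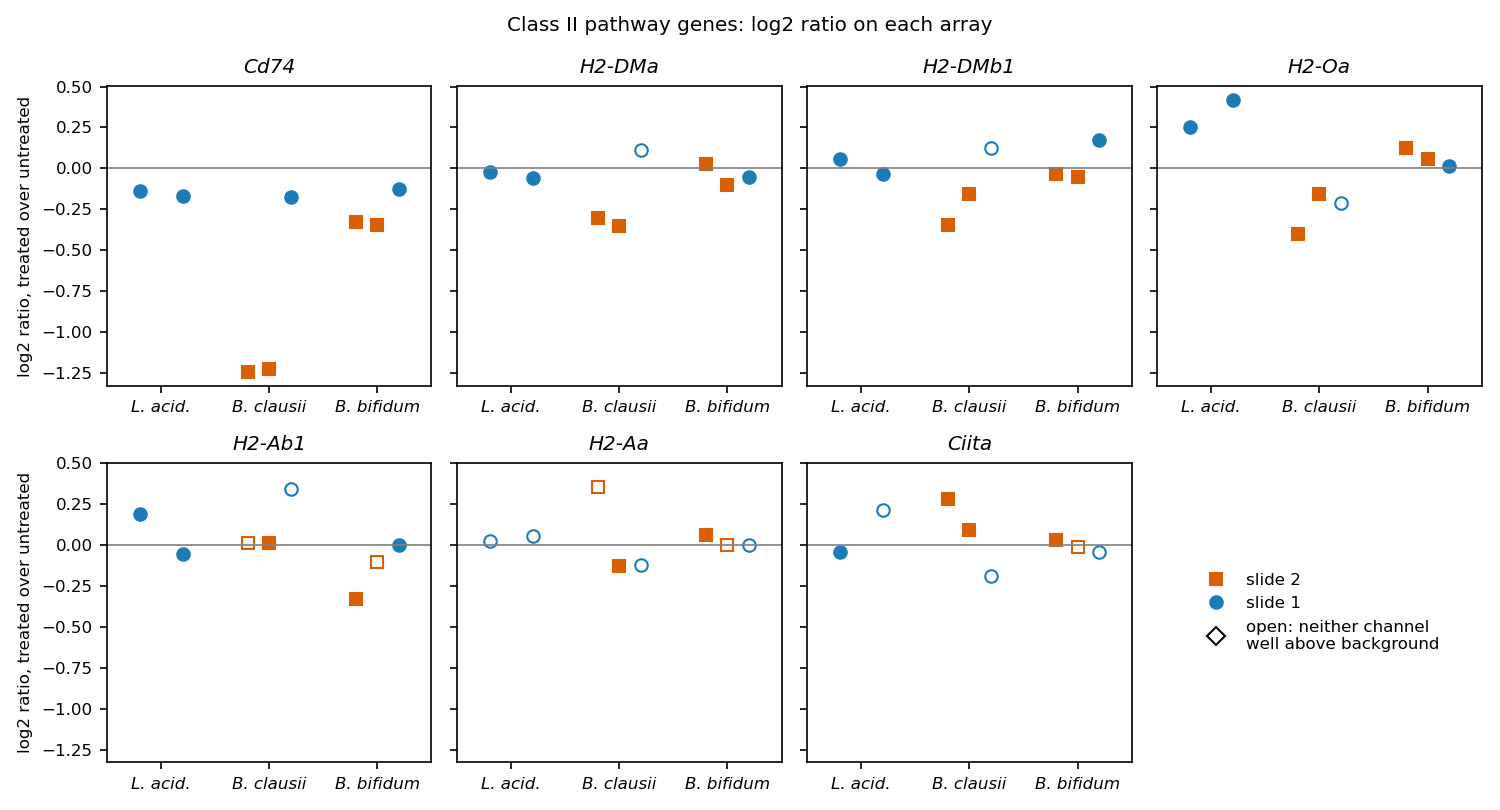
Log2 ratio of treated over untreated cells on each array, by gene and strain, with squares for slide 2 and circles for slide 1. Open points had neither channel well above background. The Cd74 squares of B. clausii lie at −1.24 and −1.23, and its B. bifidum squares at −0.33 and −0.34.

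H2-DMa, H2-DMb1 and H2-Oa belong to the peptide exchange step, and none of them passed with any strain over all arrays. H2-DMa, the alpha chain of H2-DM, read 208.5, 199 and 59 in *B. clausii*-treated cells, against 458.5, 431 and 114.5 in untreated cells. Its log2 ratios were −0.30 and −0.35 on slide 2 and 0.11 on slide 1, where neither channel was well above background. The mean was −0.18 ± 0.09 (SE, n = 3, limma adjusted p = 0.224), and within slide 2 it was −0.33 ± 0.05 (SE, n = 2, adjusted p = 0.00396).

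With the other strains the ratios of H2-DMa lay close to 0. They were 0.03, −0.10 and −0.05 on the *B. bifidum* arrays and −0.02 and −0.06 on the *L. acidophilus* arrays, where the spots were at their brightest (2709 and 2375.5 in treated cells, 2826 and 2653 in untreated cells). The gap between *B. clausii* and *B. bifidum* was −0.29 ± 0.07 within slide 2 (limma adjusted p = 0.0351, 29.7% of all genes called). Over all arrays it was −0.14 ± 0.13 (adjusted p = 0.754).

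The brightest probe of H2-DMb1, the beta chain of H2-DM, could be read in treated cells on slide 1 only, and there on 3 of 4 arrays. Its log2 ratios were −0.34 and −0.16 on slide 2 and 0.12 on slide 1 with *B. clausii*, −0.04, −0.05 and 0.18 on *B. bifidum* replicates 1 to 3, and 0.06 and −0.03 with *L. acidophilus*. Its spots were below the background limit on all 3 *B. clausii* arrays in treated cells, and no fold is given. The fitted mean was −0.13 ± 0.09 (SE, n = 3, limma adjusted p = 0.390). The second probe, also below that limit there, gave the opposite sign, 0.26 ± 0.07 (adjusted p = 0.0773 with each probe on its own), so the probes disagree on direction. On slide 2 the second probe was well above background in treated cells on 1 array, *B. bifidum* replicate 1.

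H2-Oa, the alpha chain of H2-DO, read 186, 197.5 and 55 in *B. clausii*-treated cells, against 431, 364 and 126 in untreated cells. All 3 log2 ratios were below 0, at −0.40 and −0.15 on slide 2 and −0.21 on slide 1, where neither channel was well above background. The mean of −0.26 ± 0.07 (SE, n = 3) had a limma adjusted p of 0.0700. It passed in a fit blocked on slide (−0.26, adjusted p = 0.0284, 25.3% of all genes called). It also passed with the replicate number as a block (adjusted p = 0.0283, 4332 of 15182 genes called). The same held within slide 2 (−0.28, adjusted p = 0.0201, 56% of all genes called) and without *B. clausii* replicate 3 (adjusted p = 0.0343, 5480 genes called).

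The other strains gave H2-Oa ratios above 0 on every array. With *B. bifidum* they were 0.12, 0.06 and 0.02, with a mean of 0.07 ± 0.07 (SE, n = 3, limma adjusted p = 0.690), and with *L. acidophilus* they were 0.25 and 0.42, with a mean of 0.34 ± 0.09 (SE, n = 2, adjusted p = 0.645). Under median scaling the *B. bifidum* mean was −0.34 instead. The gap between *B. clausii* and *B. bifidum*, −0.32 ± 0.10 (SE, n = 3 each), did not pass over all arrays (adjusted p = 0.313). Within slide 2 it was −0.37 ± 0.10 (adjusted p = 0.0424, 29.7% of all genes called).

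The chains of the surface molecules were near the detection limit, H2-Aa on both slides and H2-Ab1 on slide 2 and on *B. clausii* replicate 3. H2-Ab1, the beta chain of the A molecule, read 594 and 571 in *L. acidophilus*-treated cells and 558 and 703 in untreated cells, with log2 ratios of 0.19 and −0.06. With *B. bifidum* it read 99, 56 and 297 in treated cells and 146, 64 and 496 in untreated cells, and the log2 ratios were −0.33, −0.10 and 0.00 (mean −0.14 ± 0.10 SE, limma adjusted p = 0.478). Within slide 2 that mean was −0.22 ± 0.06 (adjusted p = 0.0481), a value that rests on 1 array with the gene well above background.

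The brightest H2-Ab1 probe was below the background limit on all 3 arrays in *B. clausii*-treated cells, at 52, 73 and 62 against 55, 70 and 102 in untreated cells, and no fold is given. Of its other 2 probes, one with 10 spots was well above background in both channels on *B. clausii* replicate 2 and gave ratios within 0.05 of 0 in each strain's mean. H2-Aa, the alpha chain of the same molecule, read between 46 and 70 in treated cells and between 53 and 119 in untreated cells, and no fold is given for it either. These readings are those of its brightest probe, whose log2 ratios lay between −0.13 and 0.35. Its second probe was well above background in treated cells on 2 of 8 arrays, both of *B. bifidum*, and its log2 ratios lay between −0.28 and 0.17.

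Ciita, the transactivator, read 110, 100 and 40 in *B. clausii*-treated cells, against 123, 118.5 and 80 in untreated cells. Its log2 ratios were 0.28 and 0.09 on slide 2 and −0.19 on slide 1, where neither channel was well above background. The mean was 0.06 ± 0.10 (SE, n = 3, limma adjusted p = 0.704), and within slide 2, where both arrays could be read, 0.18 ± 0.06 (SE, n = 2, adjusted p = 0.0443). The ratios lay between −0.04 and 0.03 with *B. bifidum*, and were −0.05 and 0.21 with *L. acidophilus*. On slide 2 the ratio of Ciita with *B. clausii* thus had the opposite sign to those of Cd74, H2-DMa and H2-Oa. Its treated spots there read 110 and 100 over local backgrounds of 31 and 29.

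The median log2 ratio of the 7 genes was −0.13 with *B. clausii*, −0.01 with *B. bifidum* and 0.04 with *L. acidophilus*, against −0.01, −0.01 and 0.01 over all genes. Each of these medians was the value of a gene near background, H2-DMb1, Ciita and H2-Aa in the same order of strains. They therefore do not measure a shift of the group. Within slide 2, 5 of the 7 genes passed with *B. clausii* (Cd74, H2-DMa, H2-DMb1 and H2-Oa lower, Ciita higher) where 56% of all genes did (30.3% lower and 25.7% higher), and 2 of 7 passed with *B. bifidum* (Cd74 and H2-Ab1, both lower) where 38.8% did, 23.7% as lower. With only 7 genes these counts are too small to set against the shares of all genes, so they say nothing about class II genes as a group. The H2-DMb1 probe behind the *B. clausii* count was below the background limit in treated cells on every array of slide 2.

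The untreated cells themselves differed between the slides. In the Cy3 channel, normalized between arrays, H2-DMb1 and H2-Ab1 were lower on slide 2 than on slide 1 and H2-Oa was higher, so 3 of the 7 genes passed, where 27% of all genes did (16.4% higher and 10.6% lower). H2-DMb1 had a log2 level of 6.81 ± 0.04 on slide 2 and 8.22 ± 0.51 on slide 1 (SD, n = 4 each), a difference of −1.42 ± 0.23 (SE, limma adjusted p = 0.00303). H2-Ab1 had 6.77 ± 0.45 on slide 2 and 7.96 ± 0.33 on slide 1, a difference of −1.18 ± 0.25 (adjusted p = 0.0101), but it was well above background on only 2 of 4 arrays of slide 2 and 3 of 4 of slide 1. H2-DMb1 and H2-Oa were so on 4 of 4 arrays of slide 2 and 3 of 4 of slide 1. H2-Oa had 8.69 ± 0.15 on slide 2 and 7.89 ± 0.09 on slide 1, a difference of 0.81 ± 0.12 (adjusted p = 0.00165). The arrays of the slides did not overlap for these 3 genes, but neither did they for Cd74, which did not pass. How many of all genes showed no overlap was not counted. With each Cy3 channel scaled to its 75th percentile instead, the difference was −2.31 for H2-DMb1 and 1.27 for H2-Oa, while that of H2-Ab1, −2.45, did not pass (adjusted p = 0.0646).

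The second H2-DMb1 probe differed by −0.26 ± 0.16 between the slides (adjusted p = 0.284) and the 10-spot H2-Ab1 probe by −0.43 ± 0.11 (adjusted p = 0.0226), smaller than the brightest probe of each gene. Cd74 had 13.90 ± 0.05 on slide 2 and 13.60 ± 0.19 on slide 1, and its difference of 0.30 ± 0.12 did not pass (limma adjusted p = 0.109). H2-DMa had 8.73 ± 0.34 on slide 2 and 9.26 ± 1.07 on slide 1 (difference −0.53, adjusted p = 0.465), where 1 array, *B. clausii* replicate 3, lay at 7.66. Without that array the difference was −1.06 (adjusted p = 0.00193) for H2-DMa and 0.21 (adjusted p = 0.0374) for Cd74. Ciita had 6.98 ± 0.27 on slide 2 and 6.50 ± 0.20 on slide 1 (difference 0.48, adjusted p = 0.0692, and 0.62 with adjusted p = 0.0121 without *B. bifidum* replicate 2). H2-Aa had 6.51 ± 0.23 on slide 2, with 2 of 4 arrays well above background, and 6.70 ± 0.53 on slide 1, with 0 of 4 (adjusted p = 0.634). The extended-range scan was used for slide 1 and not for slide 2, and slide, scan and culture of the untreated cells cannot be told apart.

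**Figure D3:**
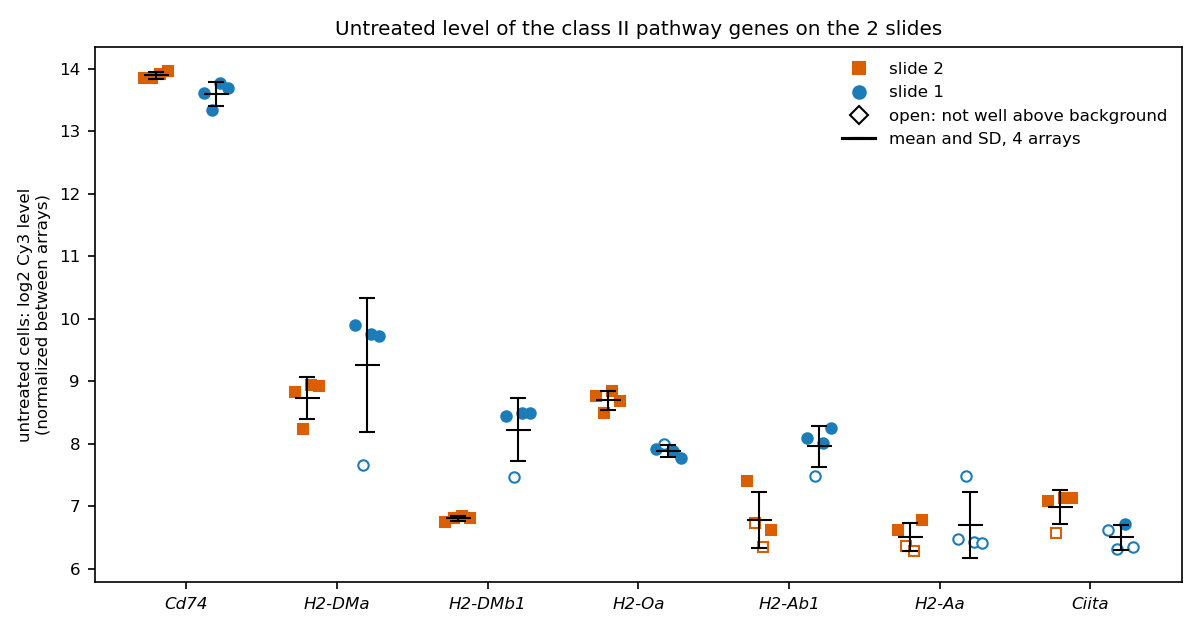
Log2 Cy3 level of each gene in untreated cells, with slide 2 left of slide 1, every array as a point, and the mean and SD over 4 arrays as bars. Levels of different genes come from different probes and cannot be compared. H2-DMb1 lies near 6.81 on slide 2 and 8.22 on slide 1, and H2-Oa lies near 8.69 on slide 2 and 7.89 on slide 1.

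Other genes of the pathway were examined in 4 lists. Over all arrays 4 of their genes passed with *B. clausii*, while within slide 2 most did. Among 11 tested genes of class II assembly and turnover, 1 rose and 10 did not pass (median −0.13). The one that rose was Marchf8, a ubiquitin ligase of the family that removes class II from the surface, at 0.41 ± 0.09 (SE, n = 3, limma adjusted p = 0.0410). Of 12 tested genes of class II transcription, 1 rose and 1 fell (median 0.12). Nfyb, a subunit of the factor that binds the Y box, had 0.53 ± 0.12 (adjusted p = 0.0470), and Ep300, a histone acetyltransferase, had −0.57 ± 0.12 (adjusted p = 0.0407).

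Of 7 tested genes of the interferon gamma route, 1 fell with *B. clausii* and 6 did not pass (median −0.21). The one that fell was Jak2, a kinase of the interferon gamma receptor, at −0.38 ± 0.09 (SE, n = 3, limma adjusted p = 0.0465). Of 6 tested costimulation genes 0 passed (median −0.22), and the nearest were Cd274, at −0.41 (adjusted p = 0.0511), and Icam1, at −0.34 (adjusted p = 0.0543). These counts stand beside 4.77% of all genes and a median of −0.01 over all genes. None of the 4 calls held without *L. acidophilus* replicate 1 or 2, *B. clausii* replicate 1 or 2, or *B. bifidum* replicate 1 or 2, where 0 to 7 genes in all were called against 724 with every array. Across the arrays left out, the adjusted p of Jak2 ran from 0.0035 to 0.344 and its ratio from −0.48 to −0.27. Within slide 2 Jak2 had −0.48 ± 0.07 (adjusted p = 0.00266), against −0.18 on the slide 1 array.

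Within slide 2, where 56% of all genes passed with *B. clausii*, 3 of the 11 assembly and turnover genes rose and 7 fell, 5 of the 12 transcription genes rose and 5 fell, 2 of the 7 interferon genes rose and 4 fell, and 4 of the 6 costimulation genes fell. In the fit blocked on slide, where 25.3% of all genes passed, 1 of 11 rose, 3 of 12 rose and 2 fell, 2 of 7 fell and 3 of 6 fell, in the same order of lists. Cd83, which keeps class II at the surface by opposing its ubiquitination, had 0.60 ± 0.05 within slide 2 (SE, n = 2, limma adjusted p = 0.000474). Ctsb, of the same list, fell there, at −1.02 ± 0.05 (adjusted p = 0.000146), the smallest p of that list.

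With *B. bifidum* 0 genes of the 4 lists passed over all arrays, where 1.73% of all genes did. The nearest were Kif5b, a motor gene, at −0.45 ± 0.09 (limma adjusted p = 0.0547) and Marchf8 at 0.31 ± 0.09 (adjusted p = 0.0959) in the first list, Kat2b (−0.24, adjusted p = 0.165) and Rfx5 (0.21, 0.213) in the second, Jak2 (−0.22, 0.201) and Ifngr1 (−0.23, 0.469) in the third, and Cd80 (−0.32, 0.133) and Cd274 (−0.13, 0.535) in the fourth. Within slide 2, where 38.8% of all genes passed, 5 of 11 rose and 2 fell, 2 of 12 rose and 4 fell, 1 of 7 rose and 3 fell, and 1 of 6 fell. Cd83 had 1.06 ± 0.05 there (SE, n = 2, adjusted p = 0.000373) and Ifi30, a lysosomal thiol reductase, 0.44 ± 0.04 (adjusted p = 0.00119). In the fit blocked on slide, where 14% of all genes passed, 3 of 11 rose and 2 fell, 2 of 12 fell, 0 of 7 passed and 1 of 6 rose.

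With *L. acidophilus* 0 genes of the 4 lists passed, and the lowest adjusted p was that of the protease gene Ctss, which processes the invariant chain, at 0.47 ± 0.16 (adjusted p = 0.660). Between *B. clausii* and *B. bifidum* 0 passed over all arrays, with the lowest adjusted p in Creb1 (0.70, adjusted p = 0.279). Within slide 2, where 29.7% of all genes passed, 1 of the 11 assembly and turnover genes was higher with *B. clausii* and 6 were lower, 5 of the 12 transcription genes were higher and 3 lower, 1 of the 7 interferon genes was higher and 2 lower, and 1 of the 6 costimulation genes was lower.

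In the untreated cells, where 27% of all genes differed between the slides, 3 of the 11 assembly and turnover genes were higher on slide 2 and 1 lower, 1 of the 12 transcription genes was higher and 1 lower, 3 of the 7 interferon genes were higher and 1 lower, and 2 of the 6 costimulation genes were higher and 1 lower. The differences furthest from 0 were those of Cd274, the ligand PD-L1, at −2.25 ± 0.40 (SE, n = 4 each, limma adjusted p = 0.00418), and of Cd83, at −1.34 ± 0.10 (adjusted p = 6.16e-05). Among the interferon genes Irf1 was higher by 1.05 ± 0.10 (adjusted p = 0.000194), and Irf8 was lower, at −1.08 ± 0.13 (adjusted p = 0.000567).

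**Figure D4:**
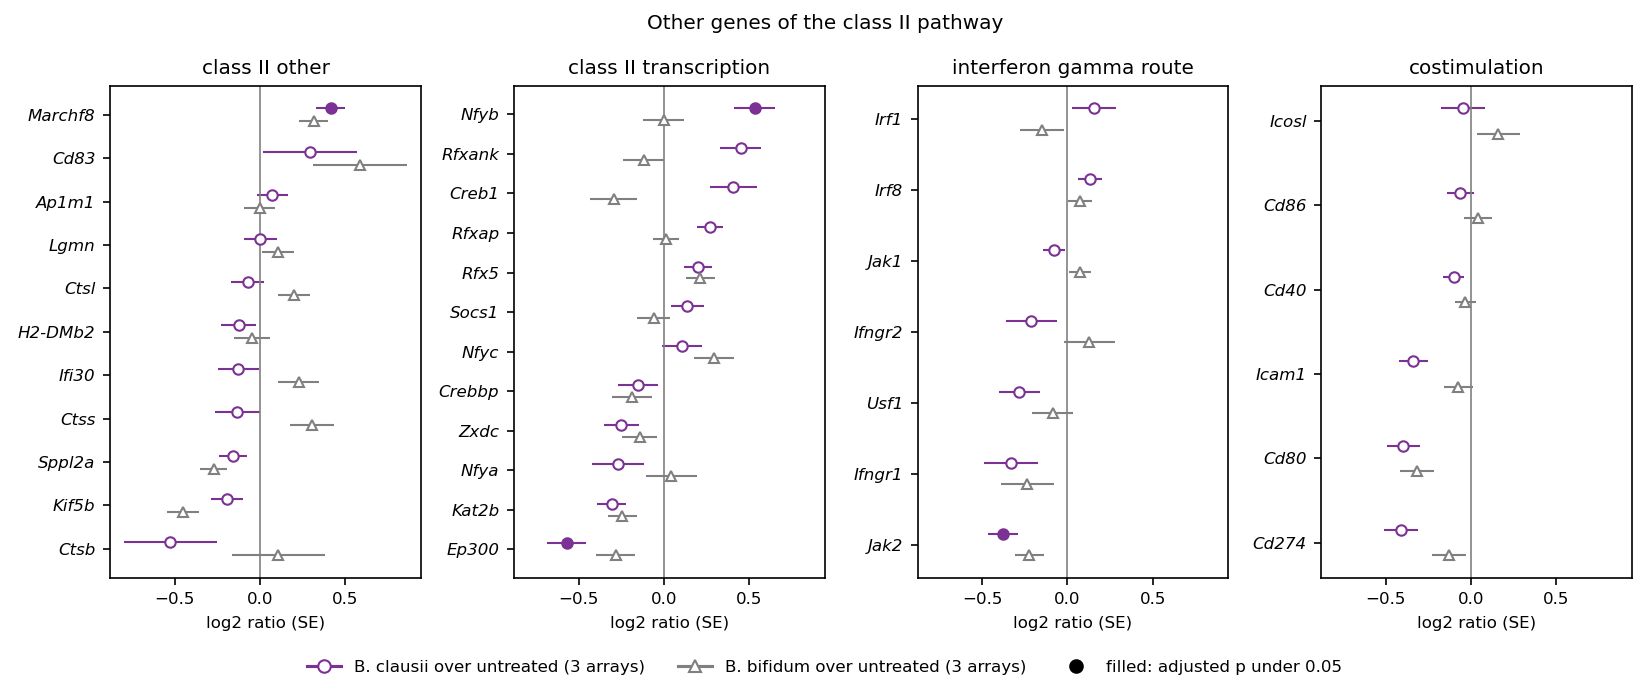
Mean log2 ratio (bars, SE) of the tested genes of 4 pathway lists with B. clausii (circles) and B. bifidum (triangles), 3 arrays each. Filled symbols passed the test. Marchf8 and Nfyb lie right of 0 at 0.41 and 0.53, and Ep300 and Jak2 left of it at −0.57 and −0.38.

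The cells carried macrophage markers. Of 7 such genes with a matched probe, 4 (Adgre1, Csf1r, Lyz2 and Mpeg1) were well above background in untreated cells on all 8 arrays and Mertk on none. No B cell (6 genes), T cell (6) or dendritic cell (7) marker was so on all 8 arrays, and Ms4a1, Cd3g, Ccr7 and Clec9a were so on none. With *B. clausii* the macrophage marker Mpeg1 fell with Cd74, at −0.85 ± 0.20 (SE, n = 3, limma adjusted p = 0.0490, and 0.000132 to 0.355 with 1 array left out), and Lyz2 had −1.09 ± 0.29 (adjusted p = 0.0586). Of the 6 tested macrophage markers 1 passed (median −0.40), and 0 of 5 B cell, 0 of 5 T cell and 0 of 4 dendritic cell markers did. Within slide 2, where 56% of all genes passed, 5 of the 6 macrophage markers fell. There 2 of the 5 B cell markers rose and 1 fell, and 1 of the 5 T cell markers rose. Of the 4 dendritic cell markers 2 rose there and 1 fell. Before normalization, the summed spot intensity of the macrophage markers ran from 8578 to 9276.5 in *B. clausii*-treated cells. In untreated cells on the same arrays it ran from 13191.5 to 30438. It was also lower in treated cells on the *B. bifidum* arrays (17872, 12814.5 and 158918, against 28663.5, 21409.5 and 183760). With *L. acidophilus* it was higher (240242 and 217962, against 175473 and 163899). The B cell, T cell and dendritic cell sums were lower in treated cells on all 8 arrays, so these sums do not set *B. clausii* apart. With *B. clausii* 0 of 3 tested neutrophil markers passed.

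Beside the slide differences of the class II genes in untreated cells, 1 of the 6 tested macrophage markers was higher on slide 2 and 3 were lower, and 2 of 3 neutrophil markers were lower. Of the 4 tested dendritic cell markers 1 was higher and 1 lower, and 0 of 5 B cell and 0 of 5 T cell markers passed. Mpeg1 differed by −1.68 ± 0.09 (SE, n = 4 each, limma adjusted p = 9.16e-06), Lyz2 by −2.05 ± 0.60 (adjusted p = 0.0366) and Fcgr1 by 3.00 ± 0.25 (adjusted p = 0.000101). S100a8, a calcium-binding protein gene of neutrophils and other myeloid cells, was well above background in untreated cells on all 8 arrays and differed by −7.53 ± 0.47 (adjusted p = 1.93e-05), and S100a9, its partner, by −1.34 ± 0.40 (adjusted p = 0.0398). The summed spot intensity of the 4 neutrophil markers with a matched probe ran from 315.5 to 390 in untreated cells of slide 2. In those of slide 1 it ran from 21686.5 to 50747.8. The part of these shifts in the Cd74 result and in the slide differences of the class II genes was not tested.

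Over the 8 arrays the log2 ratios most like those of Cd74 were those of Selenbp2 (Pearson r = 0.999), Nup98 (0.998), Dop1b (0.998), Capn5 (0.998) and Serpinb8 (0.997). The ranking covered 14388 other genes with a value on every array, with names of clones and predicted genes left out. Selenbp2 had −2.60 and −2.65 on the slide 2 arrays of *B. clausii*, against 0.35 on the slide 1 array. All 5 genes had their lowest ratios on those 2 slide 2 arrays, and the arrays share slides. Among the other class II genes r with Cd74 was 0.91 for H2-DMa, 0.87 for H2-DMb1, 0.68 for H2-Oa, 0.11 for H2-Ab1, −0.36 for H2-Aa and −0.60 for Ciita.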

How the data were processed

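Per the labels, 8 two-colour Agilent arrays each held RNA of treated cells (Cy5) and of untreated cells (Cy3). Spot brightness is deposited as linear intensity; per the file headers the software was Feature Extraction 10.7.3.1, while 10.5.1.1 stands in the submitters' processing notes. The authors' deposited value table equalled the scanner's log10 ratio within 0.005 on every array, with a median of 0 on each. Depth has no counterpart here, and the number of arrays limits the precision. Outlier, saturation and background flags, with other scanner settings, are columns of other kinds in the same deposited files. No pair of arrays held identical values.

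The median signal took the place of the planned mean signal. In limma 3.58.1 (R 4.3.3) the background was corrected with normexp (offset 50), log2 ratios were normalized by loess within arrays with control spots at weight 0, outlier spots were removed, and replicate spots were averaged. Probes flagged well above background on 2 or more arrays, in either channel, were kept (28566 of 41174), and the brightest kept probe stood for a gene. All 7 class II genes with a matched probe were kept. Probes were named through transcript accessions in a RefSeq table of GRCm38.p6, used for names and for the printed promoters. One fit over all 8 arrays gave a mean per strain against 0, with Benjamini-Hochberg adjustment over 15182 genes and a threshold of 0.05. Whether this fit takes in the spread of untreated cells among themselves is not known, since no label ties an array to its own culture. Cy3 levels were scaled between arrays by Aquantile and compared between slides, read from the file headers.

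The genes and lists were chosen with earlier results of these data known. All 8 genes were named, with up to 3 passing genes per pathway list and comparison by p, or the 2 nearest where none passed (of these, the text gives those it needs), and the 5 genes most like the brightest class II gene. A gene of the interferon gamma list is not reported here and was left out of its counts. Same-numbered arrays of *B. clausii* and *B. bifidum* deviated together (r of 0.41, 0.30 and 0.46), but so did the other-numbered arrays of one slide (0.26 and 0.37), and those of *L. acidophilus* did not (−0.09 to −0.06).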

Additional observations from a re-analysis of the deposited data

Results flagged for a closer look

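Of 14 sets of 4 arrays (7 genes on 2 slides), 5 held an untreated log2 Cy3 level far from the other 3, where chance gives about 1 in 20. On slide 1 the array of *B. clausii* replicate 3 stood apart for 3 genes. H2-DMa was at 7.66 there and at 9.73 on the nearest other array, H2-DMb1 at 7.47 and 8.44, and H2-Aa at 7.48 and 6.48, and all 3 were below the background limit on that array. On slide 2 *B. bifidum* replicate 2, the array with the fewest readable probes on that slide, stood apart for H2-DMa, at 8.23 beside 8.83 on the nearest array, and for Ciita, at 6.57 beside 7.09.

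H2-Oa had log2 ratios below 0 on all 3 *B. clausii* arrays, on 1 of which neither channel was well above background, and above 0 on all 3 *B. bifidum* arrays. The difference of −0.32 did not pass the test over all genes (limma adjusted p = 0.313). The 2 *L. acidophilus* arrays were also above 0, and their mean lay 0.59 above that of *B. clausii*. That last difference was not tested, and the *L. acidophilus* arrays shared a slide with only 1 of the *B. clausii* arrays.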

How the results depend on the processing

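With *B. clausii* 1 of the 7 genes passed as reported. The count was 0 with median scaling, the deposited value table, the scanner's processed signals, uncorrected background and each probe on its own. It was also 0 with an intensity trend with robust variances, slide 1 alone and only that strain's arrays. It was 2 with the replicate block (Cd74 and H2-Oa) or the slide as a block, where 4332 and 3834 of 15182 genes were called. It was 5 on slide 2 alone, where 8503 genes were called. Leaving out 1 array in turn gave 0 to 3. The 3 came without *B. clausii* replicate 3, where 5480 genes were called. The replicate block changed no other call. With *B. bifidum* 0 passed, 2 on slide 2 alone and 0 to 1 with 1 array left out. Between *B. clausii* and *B. bifidum* 0 passed, 3 on slide 2 alone and 0 to 1 with 1 array left out. For this gap 4505 genes were called on slide 2 alone, and 2132 without *B. clausii* replicate 3, the fit that gave 1. With *L. acidophilus* 0 passed under every setting run. For the untreated level 3 passed, 2 with Cy3 at its 75th percentile (median of all genes 0.19), 0 under the filter on both channels and all arrays, which kept only Cd74 of the 7, and 3 to 5 with 1 array left out. Of 15182 genes 4096 were called as reported and 5402 with Cy3 at its 75th percentile. Without *B. clausii* replicate 3, the fit that gave 5, 7929 were called. Over all genes, the 724 calls with *B. clausii* ran from 0 to 8503 across the settings, and without 1 array from 0 to 5480.

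The Cd74 ratio with *B. clausii* kept its sign in all 14 settings run (−1.36 to −0.17, adjusted p from 9.80e-05 to 0.247) and passed in 6. Its lowest value came with median scaling, where the median of all genes was −0.22. That scaling put the median of all genes at −0.36 with *B. bifidum* and 0.14 with *L. acidophilus*. H2-Aa ratios were left out here, since the treated signal of its brightest probe was not well above background on any array.

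Ratios that changed sign were all uncalled. With *L. acidophilus* they were Ciita under the processed signals and the deposited table (−0.44 each), Cd74 (0.41), Ciita (−0.0078) and H2-DMa (0.21) under median scaling, Cd74 (0.061) and H2-DMa (0.032) under the replicate block, and H2-Ab1 (−0.072) and H2-DMb1 (−0.14) under the slide block. With *B. clausii* they were H2-DMb1 as a mean of its probes (0.066) and, on slide 1 alone, Ciita (−0.19), H2-DMa (0.11) and H2-DMb1 (0.12). With *B. bifidum* they were H2-DMb1 with no background correction (−0.048), Ciita (0.11), H2-DMa (0.061) and H2-DMb1 (−0.37) under the processed signals, H2-DMa (0.061) and H2-DMb1 (−0.37) in the deposited table, Ciita (0.065), H2-DMb1 (−0.032) and H2-Oa (−0.34) under median scaling, Ciita (0.0085) and H2-DMb1 (−0.043) on slide 2 alone, and H2-Ab1 (0.00054) on slide 1 alone. Between *B. clausii* and *B. bifidum* they were Ciita (−0.016) under the processed signals, H2-DMb1 (0.00071) as a mean of its probes, and Ciita (−0.15) and H2-DMa (0.16) on slide 1 alone. With 1 array left out, the ranges that crossed 0 were −0.058 to 0.19 (H2-Ab1), −0.032 to 0.055 (H2-DMb1) and −0.046 to 0.21 (Ciita) with *L. acidophilus*, −0.051 to 0.18 (Ciita) with *B. clausii*, −0.029 to 0.0085 (Ciita) and −0.043 to 0.070 (H2-DMb1) with *B. bifidum*, and −0.042 to 0.19 (Ciita) between *B. clausii* and *B. bifidum*. The cause of these changes was not tested. The same settings, chosen for them after seeing the data, were run on the 5 called pathway and marker genes with *B. clausii*, and each passed in 4 to 6 of them. Marchf8 changed sign under median scaling (−0.095).

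No strain was hybridised with swapped dyes, both *L. acidophilus* arrays lay on slide 1, and the signal of H2-Aa, Ciita and, on slide 2, H2-Ab1 and H2-DMb1 was too close to background to show a moderate difference.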
